A study of Mus musculus with 15 samples.

Results

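Ubd, Ly6a, Apol10b and Capn6 are 4 of the 46679 genes in the count and TPM files of RNA sequenced from syngeneic mouse brain tumors and naïve brain. They were chosen on their measured levels, as genes with a large difference between GL261 plus 005 tumors, which the study names immune-active, and CT2A plus Mut3 tumors, which it names immunologically inert. That difference is therefore given below as a description and without a test. All the mice were C57BL/6, each of the 5 groups had 3 mice, and the mice that received tumor cells were 6 to 8 weeks old at implantation. GL261 and CT2A are lines that arose after methylcholanthrene treatment of this strain. The 005 line came from activation of H-ras and AKT in the brain of p53+/- mice, and Mut3 from inactivation of NF1 and p53. Each line had been transduced with GFP and Firefly luciferase and was injected into the right hemisphere, at 100000 cells for CT2A, GL261 and 005 and 500000 cells for Mut3, and RNA was taken from the tumor at end stage. The controls were naïve brains without a tumor. Each tumor model is a single cell line, so that the genotype of a line cannot be told apart from other properties of that line.

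The genes have separate roles. Ubd encodes FAT10, a ubiquitin-like modifier that is attached to proteins and sends them to the proteasome, and its transcription is known to respond to interferon-gamma and TNF. Ly6a encodes Sca-1, a small surface protein held by a GPI anchor that is found on blood stem cells, activated lymphocytes and endothelial cells of the mouse, and that responds to interferons. Apol10b belongs to the apolipoprotein L family, whose better known members are lipid-binding proteins, many of them interferon-responsive. Capn6 encodes an atypical calpain that lacks the active-site cysteine of this protease family and is known to stabilize microtubules, with expression mainly during development.

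On GRCm38 with the GENCODE M21 annotation, Ubd (ENSMUSG00000035186) lies on the plus strand at chr17:37193892-37196095 with 2 exons. Ly6a (ENSMUSG00000075602) lies on the minus strand at chr15:74994877-74998031 with 6 annotated transcripts, and Apol10b (ENSMUSG00000050014) on the minus strand of the same chromosome at chr15:77583819-77596125 with 4 exons. Capn6 (ENSMUSG00000067276) lies on the minus strand at chrX:143802231-143827414 with 13 exons in its longest coding transcript. A share of the transcript sequence is common with other genes, counted as words of 31 bases. This share was 0% for Ubd, 1.63% for Capn6, 11.8% for Apol10b (8.63% with Apol10a and 7.15% with Apol11b) and 31.9% for Ly6a (21.9% with Ly6c1 and 8.42% with Ly6i). The split of reads between Ly6a and its relatives is thus the least certain of the 4.

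The start regions of the genes that differ in direction between the lines are shown so that their letters can be read beside the levels. RefSeq promoters on GRCm38.p6 were held for 3 of the 4 genes, and Ly6a was not among them. Each run below has 250 bases before and 20 bases after the RefSeq start, written 5′ to 3′ on the gene's own strand, at chr17:37193642-37193911 for Ubd, chr15:77596106-77596375 for Apol10b and chrX:143827393-143827662 for Capn6. Capitals mark matches, on either strand, to 4 short motifs: GAAANNGAA (named ISRE, of the interferon-responsive kind), TTCNNNGAA (named GAS, the site of STAT factors), GGGNNTTCC (named kappaB) and TATAAG (the core promoter box).
Ubd: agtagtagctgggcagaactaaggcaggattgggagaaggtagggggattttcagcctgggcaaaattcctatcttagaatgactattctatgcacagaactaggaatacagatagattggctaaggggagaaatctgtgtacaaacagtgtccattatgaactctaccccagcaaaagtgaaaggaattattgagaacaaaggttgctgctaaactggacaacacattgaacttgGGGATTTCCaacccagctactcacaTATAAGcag
Apol10b: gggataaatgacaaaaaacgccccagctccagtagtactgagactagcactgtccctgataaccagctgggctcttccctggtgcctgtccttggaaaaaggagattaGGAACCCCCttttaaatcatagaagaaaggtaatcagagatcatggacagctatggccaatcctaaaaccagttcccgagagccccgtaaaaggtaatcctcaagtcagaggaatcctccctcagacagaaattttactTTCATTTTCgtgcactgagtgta
Capn6: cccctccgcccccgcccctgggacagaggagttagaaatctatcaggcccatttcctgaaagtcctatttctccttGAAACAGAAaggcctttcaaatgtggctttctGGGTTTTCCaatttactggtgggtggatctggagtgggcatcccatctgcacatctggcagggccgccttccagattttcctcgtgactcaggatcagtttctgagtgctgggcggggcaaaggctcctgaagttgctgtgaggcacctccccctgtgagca
Ubd had a kappaB match as written at bases −14 to −6 and a TATAAG at bases 12 to 17 counted from the RefSeq start. This TATAAG lies after the RefSeq start, so the start used in these samples may differ and the positions are relative to the RefSeq start only. Apol10b had an ISRE match in reverse complement that spans the start, from base −3 to base 6, and a kappaB match in reverse complement at bases −142 to −134. Capn6 had an ISRE match as written at bases −174 to −166 and a kappaB match as written at bases −142 to −134. Among 32817 RefSeq promoters of the same length, 7.75% held the ISRE letters, 7.58% the GAS letters, 5.40% the kappaB letters and 7.02% TATAAG. The motifs were written after these sequences had been read, and a match is a description of letters and not of binding. No GAS match was found in these windows, and kappaB letters were present both in the genes that were high in GL261 and 005 and in Capn6, which was low there.

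The total count per sample ranged from 3105119 in naïve brain to 13130158 in 005, and 3 counts, taken as the floor, were between 0.214 and 0.811 CPM (counts scaled to a common library total with edgeR's TMM factors). All 4 genes passed the filter on low counts, with which 17481 genes were tested. The neuron markers, 6 genes, summed to 3594 to 6073 CPM in naïve brain and 42.2 to 952 CPM in CT2A and Mut3, and 005 replicate 3 stood close to naïve brain with 3289 CPM and 17.8% mitochondrial counts. The RNA is from bulk tissue, in which fewer cells of a type and less RNA per cell cannot be told apart. No batch is named in the labels.

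Ubd was high in every GL261 and 005 tumor and low elsewhere. In GL261 it was at 335, 66.8 and 140.4 CPM in replicates 1, 2 and 3, and in 005 at 66.1, 517 and 69.1 CPM. In CT2A it was at 14.5, 9.32 and 14.9 CPM, in Mut3 at 1.90, 1.38 and 9.94 CPM, and in naïve brain at 1.84, 4.73 and 2.16 CPM. The lowest GL261 or 005 tumor was thus above the highest CT2A or Mut3 tumor, and the highest and lowest tumors, 005 replicate 2 and Mut3 replicate 2, differed by 374-fold. By median the order was GL261, 005, CT2A, naïve brain and Mut3. The ranges of GL261 and 005 overlapped, as did those of naïve brain and Mut3, whereas 005 stood apart from CT2A. CT2A stood apart from naïve brain in CPM but overlapped with it in TPM (the deposited unit, scaled by gene length and sample total). For a single gene these units differ between samples only by a factor for each sample. Mut3 replicate 3, at 9.94 CPM, lay within the CT2A range and well above the other Mut3 tumors. The fitted log2 fold change of GL261 and 005 over CT2A and Mut3 was 4.70, or 26.0-fold, which placed Ubd at rank 46 of the 17481 genes in that direction. It was 3.85 without 005 replicate 2 and 5.46 without Mut3 replicate 3.

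Ly6a was the most abundant of the 4 genes in every group. On the TPM scale, which allows genes to be compared, its mean in GL261 was 501 ± 218 TPM (SD, n = 3) beside 41.3 ± 25.5 for Ubd, 6.00 ± 2.36 for Apol10b and 0.437 ± 0.221 for Capn6. In CPM, Ly6a was at 2591, 921 and 1065 in GL261 replicates 1, 2 and 3 and at 504, 2545 and 193 in 005. It was at 127, 149.7 and 163 CPM in CT2A and at 23.9, 55.9 and 44.5 CPM in Mut3. Naïve brain had 68.1, 52.3 and 80.0 CPM. Unlike Ubd, Ly6a was well above the floor in naïve brain, and Mut3 tumors were at or below that level. The lowest GL261 or 005 tumor, 005 replicate 3 at 193 CPM, was close to the highest CT2A tumor at 163 CPM. By median the order was again GL261, 005, CT2A, naïve brain and Mut3, with the neighbors GL261 and 005 overlapping, and naïve brain and Mut3 overlapping in CPM. The unit mattered against naïve brain. In TPM, CT2A (44.8 ± 2.01, SD, n = 3) was 1.14-fold above naïve brain (40.0 ± 1.69) by median and Mut3 (14.3 ± 5.75) stood apart below it, whereas in CPM CT2A was 2.20-fold above naïve brain by median. The fitted log2 fold change of GL261 and 005 over CT2A and Mut3 was 4.04 (16.5-fold, rank 100 of 17481), and 3.23 without 005 replicate 2.

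Apol10b followed the pattern of Ubd at a lower level. It was at 86.2, 29.4 and 49.4 CPM in GL261 replicates 1, 2 and 3 and at 28.8, 104 and 6.27 CPM in 005. CT2A had 5.50, 5.43 and 3.49 CPM and Mut3 had 1.34, 0.755 and 4.93 CPM. In naïve brain it was at 1.43, 0.498 and 0.541 CPM, which rest on 7, 2 and 2 counts. The groups were separated by a narrow margin, since 005 replicate 3 at 6.27 CPM was just above CT2A replicate 1 at 5.50 CPM. By median the order was GL261, 005, CT2A, Mut3 and naïve brain, and of these neighbors 005 and CT2A had separate ranges and the other pairs overlapped. The fitted log2 fold change of GL261 and 005 over CT2A and Mut3 was 3.89 (14.8-fold, rank 119 of 17481). It was 3.19 without 005 replicate 2 and 4.52 without Mut3 replicate 3.

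Capn6 had the opposite pattern. It was at 67.0, 94.2 and 102 CPM in CT2A replicates 1, 2 and 3 and at 38.0, 25.4 and 74.6 CPM in Mut3. GL261 had 3.73, 7.43 and 8.86 CPM and 005 had 1.03, 1.57 and 1.50 CPM. Naïve brain had 1.22, 2.99 and 0.541 CPM, from 6, 12 and 2 counts. Each CT2A and Mut3 tumor was thus above each GL261 and 005 tumor, and the 005 tumors lay within the range of naïve brain. By median the order was CT2A, Mut3, GL261, 005 and naïve brain in CPM. CT2A and Mut3 overlapped, as did 005 and naïve brain, and in TPM naïve brain took the place between GL261 and 005 and overlapped with each. The fitted log2 fold change of GL261 and 005 over CT2A and Mut3 was −4.38, which is 20.8-fold lower in GL261 and 005 and rank 29 of 17481 from the lower end, and it ranged from −4.55 to −4.06 when single tumors were left out. For each of the 4 genes the 6 GL261 and 005 tumors did not overlap with the 6 CT2A and Mut3 tumors. The genes were chosen by a large difference in these same values, so the lack of overlap is a description. The share of all tested genes without such an overlap was not counted. By a different measure, the test described below, 16.9% of all tested genes passed in this contrast.

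**Figure D1:**
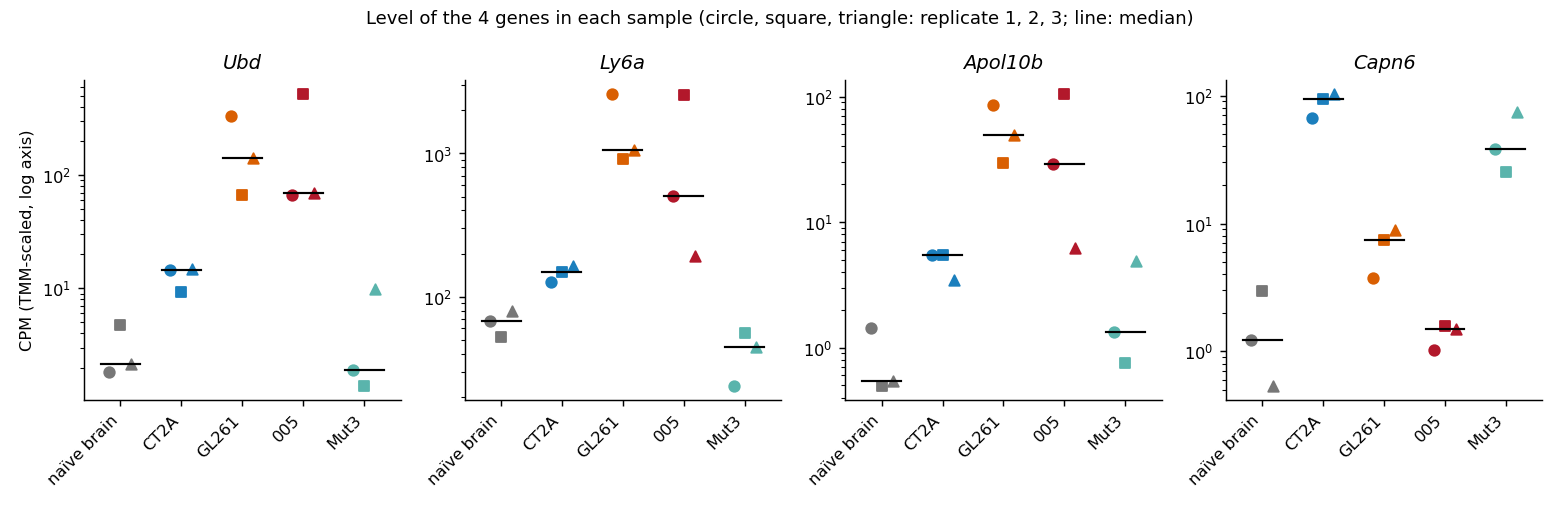
Each panel plots 1 gene, with the level in CPM on a log axis against the group. Each point is 1 sample, its shape gives the replicate, and the black line is the median of the 3 samples. Ubd, Ly6a and Apol10b were high in GL261 and 005, with 005 replicate 2 or GL261 replicate 1 at the top, and Capn6 was high in CT2A and Mut3.

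To ask whether the lines within each pair also differed, GL261 was compared with 005 and CT2A with Mut3, contrasts that did not choose the genes. These used edgeR's quasi-likelihood test over all tested genes, and a gene passed with a p below 0.05 after Benjamini-Hochberg adjustment and a log2 fold change of 1 or more in size. Between GL261 and 005, Capn6 was higher in GL261 with a log2 fold change of 2.29 (SE 0.52, adjusted p = 0.0299), and the 3 GL261 tumors were above the 3 005 tumors. It was the only 1 of the 4 genes to pass, beside 2.62% of all tested genes. This call was lost without GL261 replicate 2 (adjusted p = 0.0883), GL261 replicate 3 (0.133), 005 replicate 1 (0.132) or 005 replicate 2 (0.0679), and the 005 tumors rest on 10, 13 and 21 counts. The log2 fold change was −0.27 (SE 0.82, adjusted p = 0.935) for Ubd, 0.50 (SE 0.67, adjusted p = 0.823) for Ly6a and 0.25 (SE 0.77, adjusted p = 0.938) for Apol10b. For these 3 genes the spread within GL261 and 005 was large, up to 16.6-fold between the lowest and highest 005 tumor for Apol10b, and the sign of the log2 fold change turned when single tumors were left out. Without 005 replicate 2, for example, the value for Ubd was 1.42.

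Between CT2A and Mut3, 0 of the 4 genes passed edgeR's test, beside 12.8% of all tested genes. Ly6a had an unadjusted p under 0.05, as 1 of the 4 genes, with a log2 fold change of 1.82 (SE 0.70, adjusted p = 0.0984), and DESeq2 called 1 gene, Ly6a (adjusted p = 0.0415). Its range in CT2A, from 127 to 163 CPM, was above that in Mut3, from 23.9 to 55.9 CPM. The log2 fold change of CT2A over Mut3 was 1.52 (SE 0.87, adjusted p = 0.266) for Ubd, 1.00 (SE 0.84, adjusted p = 0.466) for Apol10b and 0.93 (SE 0.46, adjusted p = 0.200) for Capn6. All of these values were above 0, and they stayed above 0 when single tumors were left out. Without Mut3 replicate 3 they were 3.07 for Ubd (adjusted p = 0.0665), 2.28 for Apol10b (adjusted p = 0.159) and 1.58 for Capn6 (adjusted p = 0.0636).

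The mean of the 4 tumor lines was higher than naïve brain for 4 of the 4 genes in edgeR's test, beside 36.9% of all tested genes. The log2 fold change was 3.74 (SE 0.90, adjusted p = 0.00441) for Ubd, 2.24 (SE 0.63, adjusted p = 0.0106) for Ly6a, 3.92 (SE 0.92, adjusted p = 0.00387) for Apol10b and 3.12 (SE 0.51, adjusted p = 6.13e-04) for Capn6. Genes that were chosen because they are high in some of the lines could hardly fail to exceed a low level in naïve brain, so this count is not independent of the choice. Without naïve replicate 2 the log2 fold change was 4.44 for Ubd and 4.07 for Capn6, and without naïve replicate 1 it was 4.62 for Apol10b. The mean also hides the lines apart. As a description, the fitted level over naïve brain was 62.1-fold in GL261, 74.7-fold in 005, 4.44-fold in CT2A and 1.55-fold in Mut3 for Ubd. For Capn6 it was 54.8-fold in CT2A, 28.7-fold in Mut3 and 4.21-fold in GL261, and 005 was 1.16-fold below naïve brain. For Ly6a it was 22.8-fold in GL261, 16.2-fold in 005 and 2.19-fold in CT2A, and Mut3 was 1.61-fold below naïve brain. The lines share the naïve samples in these values.

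**Figure D2:**
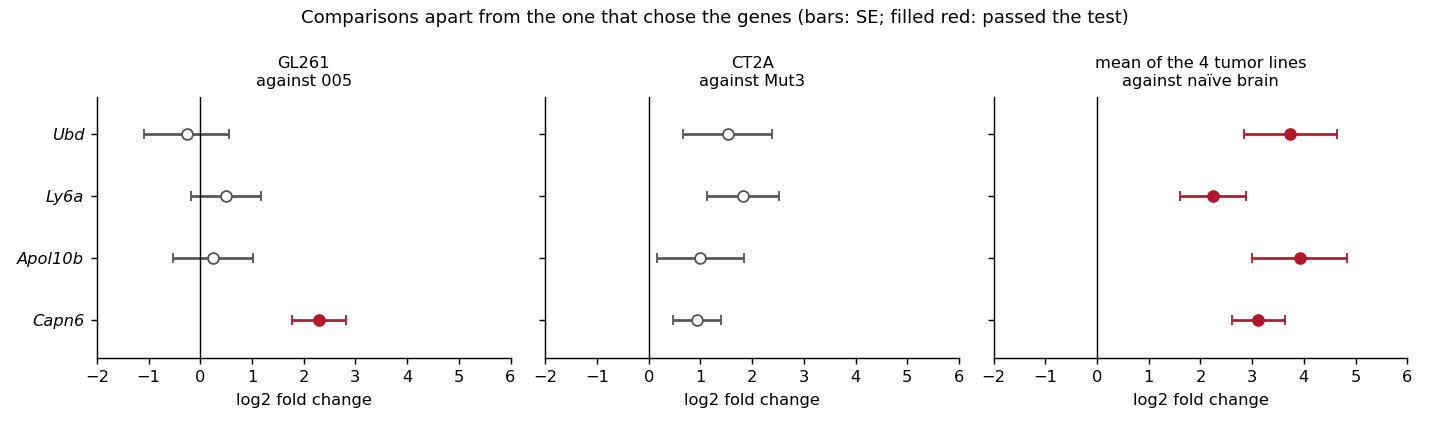
The x axis is the log2 fold change from edgeR for the 4 genes in each comparison named above the panel, and bars are the SE. Filled red points passed the test. Capn6 passed between GL261 and 005 at 2.29, 0 genes passed between CT2A and Mut3, and 4 passed between the tumor lines and naïve brain.

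Within GL261 and within 005, Ubd, Ly6a and Apol10b had their highest level in the same tumor. In GL261 this was replicate 1 and in 005 replicate 2. The levels of Ubd and Apol10b over the 15 samples had a Pearson correlation of 0.95 in log2 CPM, those of Ubd and Ly6a 0.93 and those of Ly6a and Apol10b 0.93. Capn6 had a correlation of −0.25 with Ubd, −0.33 with Ly6a and −0.15 with Apol10b. These values describe 5 groups that share libraries, and the genes were picked for a common contrast. Naïve brain was low in Capn6 as well as in Ubd.

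Markers of immune cells moved with Ubd, Ly6a and Apol10b, and not with Capn6. The 10 leukocyte markers summed to 124 to 241 CPM in GL261, 132 to 794 in 005, 59.2 to 114 in CT2A, 13.1 to 40.0 in Mut3 and 11.2 to 34.4 in naïve brain. Of these, 7 were tested and 7 passed as higher in the GL261 plus 005 contrast. The 8 macrophage and microglia markers summed to 447 to 759 CPM in GL261, 422 to 968 in 005, 240.2 to 345 in CT2A, 58.1 to 157 in Mut3 and 154 to 208 in naïve brain, and 6 of 8 were higher in GL261 and 005. The order of these sums was close to that of Ubd and Apol10b, and 005 replicate 2 was highest in each. The part of these cells in the levels of the genes was not tested. Markers of brain cells also moved with the contrast. Of the tested markers, 6 of 6 for neurons, 3 of 5 for oligodendrocytes and 3 of 5 for astrocytes were higher in GL261 and 005, and their part was not tested either. The neuron markers summed to 696, 1657 and 889 CPM in GL261 and 533, 163 and 3289 CPM in 005. In CT2A they summed to 195 to 952 CPM and in Mut3 to 42.2 to 128 CPM. Each GL261 and 005 tumor was thus above each Mut3 tumor, whereas 005 replicate 2 was below each CT2A tumor and replicate 3 above. Of 7 dendritic cell markers 2 were higher in GL261 and 005, with sums of 28.3 to 31.8 CPM in GL261, 29.8 to 79.2 in 005, 17.5 to 26.5 in CT2A and Mut3 and 24.3 to 35.6 in naïve brain.

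Set against Ptprc, the gene of the leukocyte antigen CD45, Ubd was not in a constant ratio. Its level per unit of Ptprc, both in CPM, was 3.92, 1.77 and 2.98 in GL261 and 1.43, 1.98 and 1.38 in 005. It was 0.744, 0.249 and 0.399 in CT2A and 0.202, 0.611 and 0.897 in Mut3. Naïve brain had 0.409, 2.71 and 1.14, so that naïve replicate 2 was above each 005 tumor. Ptprc itself was low in naïve brain, at 4.49, 1.74 and 1.89 CPM, and in Mut3 replicate 2, at 2.26 CPM. Each ratio to Ptprc in these samples thus rests on few counts. The ratio uses the Ubd levels on which the gene was chosen and is a description only. For Apol10b the ratio was 0.781 to 1.05 in GL261, 0.125 to 0.624 in 005, 0.0938 to 0.281 in CT2A, 0.143 to 0.444 in Mut3 and 0.286 to 0.318 in naïve brain, so that 005 overlapped with each of the latter 3 groups. For Ly6a it was 22.6 to 30.3 in GL261, 3.86 to 10.9 in 005, 4.00 to 6.49 in CT2A, 2.55 to 24.7 in Mut3 and 15.2 to 42.3 in naïve brain. GL261 was thus above 005 and CT2A, which overlapped with each other. GL261 overlapped with naïve brain and, through replicate 2 alone, with Mut3, whose other tumors were at 2.55 and 4.02.

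Ly6a was also set beside markers of endothelial cells, in which it is known, and Capn6 beside markers of mural cells and fibroblasts. The 8 endothelial markers, relevant to Ly6a, summed to 177 to 229 CPM in GL261 and 137 to 234 in 005, beside 119 to 128 in CT2A, 118 to 134 in Mut3 and 165 to 242 in naïve brain, and 0 of 8 passed edgeR's test between GL261 plus 005 and CT2A plus Mut3 (2 had an unadjusted p under 0.05, and DESeq2 called 0). The sums of the GL261 and 005 tumors did not overlap with those of CT2A and Mut3. Pecam1, an endothelial surface gene named after its values were seen, had a log2 fold change of 0.88 (adjusted p = 0.00523), under the fold threshold. The 7 mural cell and fibroblast markers summed to 451 to 658 CPM in CT2A, 247 to 258 in GL261, 92.5 to 229 in 005, 116 to 192 in Mut3 and 89.9 to 165 in naïve brain, and 0 of 7 passed edgeR's test in the same contrast (1 had an unadjusted p under 0.05, and DESeq2 called 1). The part of these cells in the levels of Ly6a and Capn6 was not tested.

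**Figure D3:**
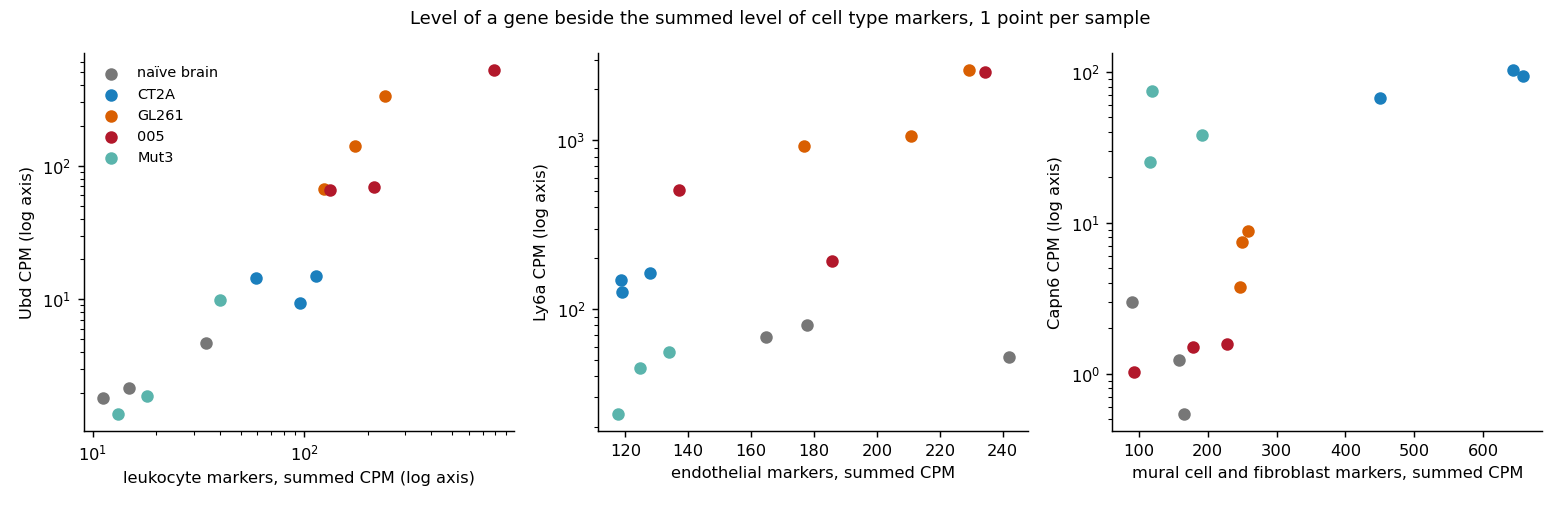
Each point is 1 sample, colored by group. The y axes are the CPM of Ubd, Ly6a and Capn6 on log axes, and the x axes are the summed CPM of leukocyte markers (log axis), endothelial markers, and mural cell and fibroblast markers. The leukocyte sums were 124 CPM or more in GL261 and 005, and the mural cell and fibroblast sums were 451 to 658 CPM in CT2A and 116 to 192 CPM in Mut3.

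To see whether relatives of the 4 genes and the genes of the pathway shared the contrast, lists of these were tested between GL261 plus 005 and CT2A plus Mut3 in the same fit. Of all tested genes, 12.6% were higher and 4.29% lower in GL261 and 005, with a median log2 fold change of 0.10. Of the 82 listed genes that were tested, leaving out the 4, 33 were higher and 2 lower. Because the lists were drawn up around genes already known to differ, these counts describe the lists only.

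Among ubiquitin-like modifiers and their enzymes, 2 of 22 tested genes (9.09%) were higher and 0 lower, with a median of 0.22. This share was below the 12.6% of all tested genes that were higher. The genes that passed were Ube2l6 (1.84, SE 0.38, adjusted p = 0.00579) and Uba7 (1.60, SE 0.33, adjusted p = 0.00555), the conjugating and activating enzymes of ISG15. Isg15 itself, named after its values were seen, did not pass. It was at 14.5, 9.86 and 14.2 CPM in GL261 and 1.65, 6.28 and 1.14 CPM in 005. In CT2A it was at 10.7, 13.8 and 11.6 CPM and in Mut3 at 0.559, 2.39 and 0.967 CPM. The enzymes that load FAT10 itself did not pass. Uba6, the activating enzyme, had a log2 fold change of −0.087 (adjusted p = 0.843) and Ube2z, the conjugating enzyme, 0.25 (adjusted p = 0.424), named here for their role and after their values were seen.

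In the Ly6 family, 8 of 12 tested genes were higher and 1 lower, with a median of 2.23, and 5 were called without CT2A replicate 3. The genes highest in rank were Ly6c1 (3.70, SE 0.54, adjusted p = 9.70e-04), Ly6i (3.55), Ly6d (2.67) and Ly6k (2.60), and Ly6c2 was at 2.37. Ly6c1, a marker of monocytes and endothelial cells, was at 576, 233 and 234 CPM in GL261 and 149, 934 and 80.6 CPM in 005. It was at 58.7, 36.6 and 37.3 CPM in CT2A and 11.2, 25.9 and 17.2 CPM in Mut3. The groups overlapped for Ly6i, at 8.34 CPM in 005 replicate 1 and 10.3 CPM in CT2A replicate 3. They also overlapped for Ly6c2, at 5.97 CPM in 005 replicate 1 and 30.4 CPM in CT2A replicate 2. For Ly6d the margin was narrow (3.40 CPM in 005 replicate 1, 2.56 in CT2A replicate 1). Ly6c1 and Ly6i are among the genes that share sequence with Ly6a, and the part of shared reads in these values was not tested. Ly6g6c was lower (−3.83, adjusted p = 0.00868), and this came from Mut3, at 4.36, 61.2 and 10.5 CPM. CT2A had 2, 0 and 4 counts of it and each GL261 and 005 tumor 1 to 3 counts.

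In the apolipoprotein L family, 5 of 9 tested genes were higher and 0 lower, with a median of 1.96, and 3 were called without CT2A replicate 2, CT2A replicate 3, GL261 replicate 2, 005 replicate 2, Mut3 replicate 1 or Mut3 replicate 3. They included Apol6 (3.41, SE 0.72, adjusted p = 0.00621), Apol9a (2.07) and Apol8 (2.06). Apol6 was at 116, 16.3 and 48.3 CPM in GL261 and 7.83, 85.8 and 4.63 CPM in 005. It was at 1.71, 2.48 and 3.10 CPM in CT2A and 3.47, 13.5 and 4.40 CPM in Mut3, so that the groups overlapped. They also overlapped for Apol9a, at 18.1, 21.6 and 16.1 CPM in CT2A and 6.18, 36.5 and 3.06 CPM in 005, and for Apol8, at 0.517 to 1.95 CPM in CT2A and 0.121 to 1.71 CPM in 005. Apol7e had the highest fitted value (5.90, SE 1.76, adjusted p = 0.0328) on 58, 30 and 0 counts in GL261, 0, 166 and 42 in 005, 17, 0 and 0 in CT2A and 0 in each Mut3 tumor, and such a value depends on the prior count of the fit. The genes closest to Apol10b in sequence were too low to be tested. Apol10a was at most 1.24 CPM in any tumor, Apol11b at most 4.71 CPM and Apol11a at 0 in each sample.

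The calpain family did not share the pattern of Capn6. Of 11 tested genes 0 were higher and 1 was lower, with a median of 0.14. The gene that was lower was Cast, which encodes calpastatin, the inhibitor of the classical calpains (−1.16, SE 0.30, adjusted p = 0.0162). It was at 67.9, 84.9 and 69.9 CPM in CT2A and 45.8, 23.7 and 27.4 CPM in Mut3, beside 24.9, 20.4 and 19.7 CPM in GL261 and 20.7, 36.0 and 10.5 CPM in 005, so that Mut3 overlapped with 005. It did not pass without Mut3 replicate 1, when 0 calpain genes were called, and 2 were called without 005 replicate 1.

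Of the 28 genes of the interferon-gamma and TNF pathway, 18 were higher and 0 lower in GL261 and 005, with a median of 1.52, and 11 were called without 005 replicate 2. They were led by Ciita (3.87, SE 0.74, adjusted p = 0.00487), the activator of MHC class II genes, Cxcl9 (3.64, SE 0.78, adjusted p = 0.00669), a chemokine that draws T cells, Iigp1 (3.12, SE 0.51, adjusted p = 0.00179), an interferon-induced GTPase, and the ligand Ifng itself (3.04, SE 0.81, adjusted p = 0.0181). Ifng rests on 15, 1 and 17 counts in GL261, 12, 79 and 24 in 005, 8, 2 and 5 in CT2A and 0, 3 and 1 in Mut3, and the groups overlapped. They also overlapped for Iigp1, at 68.2 CPM in 005 replicate 3 and 106 to 125 CPM in CT2A. The margin was narrow for Ciita (1.55 CPM in 005 replicate 1, 1.50 in Mut3 replicate 3). It was also narrow for Cxcl9 (50.4 CPM in GL261 replicate 2, 48.6 in CT2A replicate 3). Tnf had a log2 fold change of 1.29 and did not pass (adjusted p = 0.186). Among the receptors Ifngr2 was higher by 1.05 (adjusted p = 0.00507) and Ifngr1 was at 0.07 (adjusted p = 0.863). These receptor and ligand genes are named for their role and after their values were seen. Between GL261 and 005, 0 of the 82 listed genes passed edgeR's test, although 19 had an unadjusted p under 0.05 and DESeq2 called 10. Between CT2A and Mut3, 18 of the 82 were higher in CT2A and 3 lower, among them 8 of the 28 pathway genes, all higher in CT2A, although 0 of the 4 genes passed there.

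**Figure D4:**
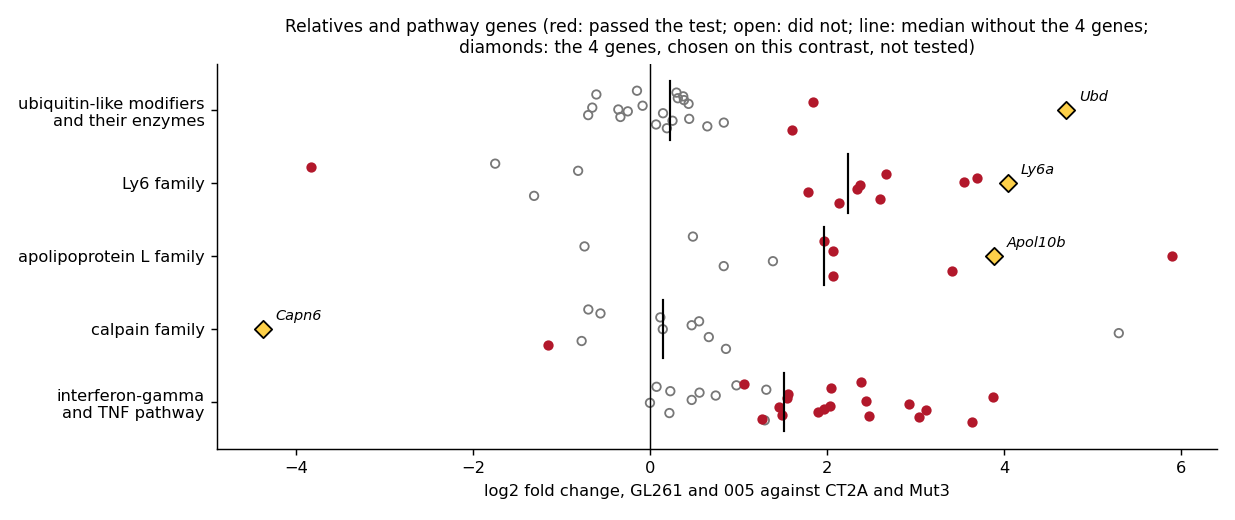
The x axis is the log2 fold change of GL261 and 005 over CT2A and Mut3, with 1 row for each list. Red points passed edgeR's test, open points did not, black lines are medians without the 4 genes and diamonds are the 4 genes, which were chosen on this contrast. The Ly6, apolipoprotein L and interferon-gamma lists had medians of 2.23, 1.96 and 1.52, and the calpain list had a median of 0.14.

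The genes around each of the 4 were examined within 250000 bases. Around Ly6a, 7 of the 9 tested genes passed as higher in GL261 and 005 and 0 as lower, with a median of 2.37, and these 7 were members of the Ly6 family, from Ly6i at 11447 bases to Lynx1 at 241831 bases. Around Apol10b, 4 of 7 tested genes were higher, with a median of 1.96, and these 4 were apolipoprotein L genes. The neighborhoods of Ly6a and Apol10b hold their own families, so these values overlap with those of the lists. Around Ubd, 2 of 8 tested genes were higher, and most of the 45 annotated genes there were not tested. These were Gabbr1, a GABA receptor subunit gene (2.28, adjusted p = 0.0131), and Mog, a myelin gene (2.16, adjusted p = 0.0123). Next to Capn6, at 4435 bases, Pak3, a kinase gene of neurons, was higher in GL261 and 005 (1.74, SE 0.34, adjusted p = 0.00445), in the direction opposite to Capn6, and Dcx at 28428 bases had a value of 0.59 (adjusted p = 0.610). Gabbr1, Mog, Pak3 and Dcx are named after their values were seen.

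**Figure D5:**
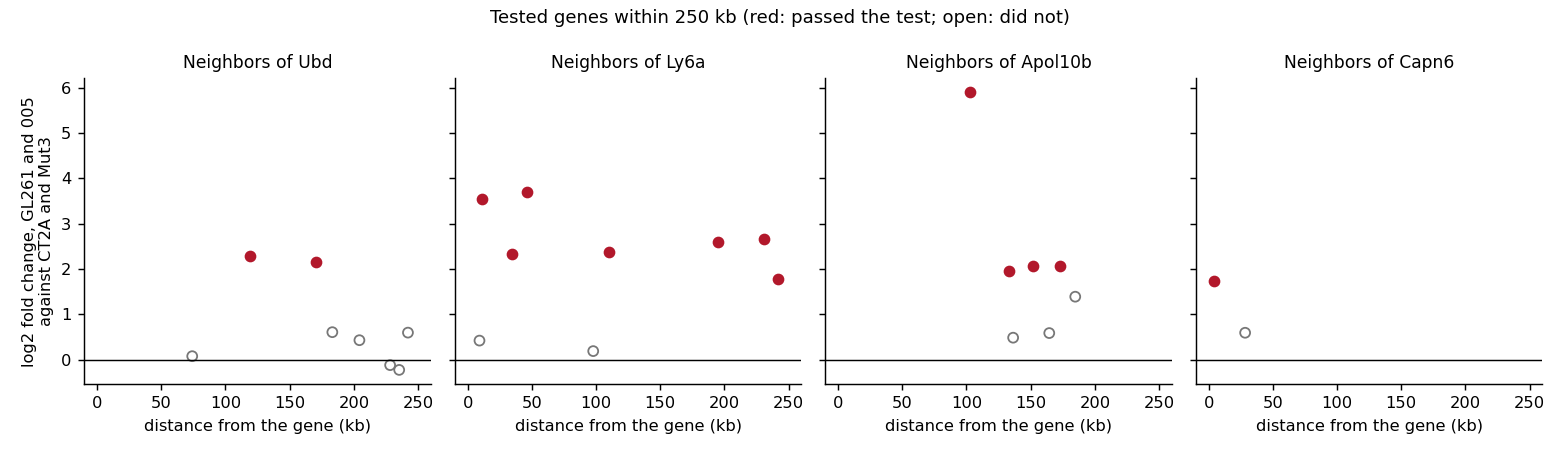
Each panel plots the tested genes within 250000 bases of 1 of the 4 genes, with the distance from the gene in kb on the x axis and the log2 fold change of GL261 and 005 over CT2A and Mut3 on the y axis. Red points passed edgeR's test. Around Ly6a 7 of 9 genes passed, around Apol10b 4 of 7, around Ubd 2 of 8, and the nearest tested gene to Capn6 was at 1.74.

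The genes most like each of the 4 over the 15 samples, by Pearson correlation of log2 CPM among all tested genes, were as follows. For Ubd they were Snx20, Gbp4, Serpina3g, Slamf8 and C1qc, with correlations from 0.96 to 0.98. For Ly6a they were Serping1, Gbp4, Gbp2b, Gm4841 and its relative Ly6c1, with 0.95 to 0.97. For Apol10b they were Gm12185, Gbp4, Gbp2, Ubd itself and Gm4841, with 0.95 to 0.96. Gbp4, which encodes a guanylate-binding protein, was thus near to each of these 3 genes. It was at 82.6 to 199 CPM in GL261, 32.3 to 391 in 005, 25.5 to 30.5 in CT2A, 4.15 to 10.5 in Mut3 and 5.30 to 5.73 in naïve brain. C1qc encodes a chain of complement C1q, which macrophages and microglia make, and Serping1 encodes the C1 inhibitor. Snx20 was near the floor at 0 to 0.249 CPM in naïve brain, 0.466 to 0.517 in CT2A and 0 to 0.176 in Mut3. It was at 1.45 to 1.87 CPM in GL261 and 0.721 to 3.14 in 005. Gbp2b was also low, at 0.204 to 0.270 CPM in naïve brain, 0.488 to 0.904 in CT2A and 0 to 0.704 in Mut3.

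For Capn6 the most alike genes were Gm9864, Gm11127, a gene without a symbol, Gm10040 and Gm42577, with correlations from 0.94 to 0.97. Gm11127 was at 207 to 411 CPM in CT2A and 119 to 319 in Mut3, beside 49.6 to 74.7 in GL261, 12.4 to 15.6 in 005 and 8.98 to 20.2 in naïve brain. Gm9864 was at 91.6 to 167 CPM in CT2A, 35.8 to 62.7 in Mut3, 6.63 to 11.4 in GL261, 1.96 to 6.04 in 005 and 1.63 to 3.99 in naïve brain. As for Capn6, the GL261 tumors had more of these genes than the 005 tumors. The samples of a group share a line, so such likeness describes 5 groups more than 15 independent points.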

How the data were processed

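RNA from end-stage tumors and naïve brain of 15 mice was analysed, with groups taken from the sample labels. The authors aligned reads with STAR, marked duplicates with Picard and took quality metrics with RNA-SeQC. The submitters' processing notes also name Salmon, DESeq2 1.18.1 and mm10. Expected counts (estimates, not always whole, with no scaling between samples) and TPM values (scaled by gene length and sample total) were deposited. Count divided by TPM was a gene factor times a sample factor, so the tables are not independent.

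Gene symbols were matched for 46201 of 46679 identifiers. Counts were rounded and fitted over all 15 samples with a mean per group in edgeR 4.0.16 (R 4.3.3), with filterByExpr, TMM and the quasi-likelihood test, and genes were called with an adjusted p below 0.05 and a log2 fold change of 1 or more in size. CPM values use TMM-scaled library sizes, and log2 CPM a prior count of 2. The p-values measure the spread between mice. Alternatives were DESeq2 1.42.0, limma 3.58.1 on log2(TPM + 1), no filter on low counts, library size in place of TMM, only the samples compared, a replicate block and single replicates left out. The fit was tested on simulated data. The floor of 3 counts covers counting error only. The 4 genes and the gene lists were chosen with earlier results of these data known. The genes named are the 4, from each list the genes called (up to 4 in each direction by size) and those closest in sequence to the 4, and the 5 genes most like each of the 4 over the samples. Words of 31 bases were counted in GENCODE M21 transcripts, and promoters came from RefSeq.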

Additional observations from a re-analysis of the deposited data

Results flagged for a closer look

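Capn6 differed between GL261 and 005, the pair of lines in which it was low, with a log2 fold change of 2.29 (SE 0.52, edgeR adjusted p = 0.0299). The value is also the difference between the log2 fold changes of these lines over naïve brain, and the test of that difference is what marked it. The 3 GL261 tumors had 18, 46 and 73 counts of Capn6 and the 3 005 tumors 10, 13 and 21.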

How the results depend on the processing

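Depth limits Capn6 and Apol10b in naïve brain and Capn6 in 005, where few counts were found. The number of the 4 genes called between GL261 and 005, 1 in the report, was 0 with library size in place of TMM (Capn6 adjusted p = 0.0517), 0 with limma on log2(TPM + 1) (0.606), 0 in a fit of only the samples compared (0.128) and 0 to 1 when single replicates were left out. Between CT2A and Mut3, 0 became 1, Ly6a, with DESeq2 (adjusted p = 0.0415), with no filter on low counts (0.0376) and with only the samples compared (0.00495), and was 0 with each replicate left out. Against naïve brain, 4 of 4 were called under each alternative run. With single replicates left out, the log2 fold change of GL261 over 005 ranged from −1.01 to 1.42 for Ubd, from −0.064 to 2.13 for Ly6a and from −0.29 to 1.65 for Apol10b. For GL261 and 005 over CT2A and Mut3, limma on log2(TPM + 1) gave 3.83 for Ubd, 2.07 for Apol10b and −1.87 for Capn6, a scale that understates changes of low genes.

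Of the listed genes, 35 in the report, 22 were called with limma on log2(TPM + 1) and 24 to 39 with single replicates left out. The Ly6 family ranged from 5 to 10 and the interferon-gamma and TNF pathway from 11 to 19 when replicates were left out. The apolipoprotein L family, 5 in the report, had 2 with limma, 2 with only the samples compared and 3 to 6 with replicates left out. The calpain family, 1 in the report, had 2 with no filter, 0 with limma and 0 to 2 with replicates left out. The causes were not tested.

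Over all tested genes, DESeq2 called 952 genes between GL261 and 005 beside 458 in the report, and a fit of only the samples compared called 148. With limma on log2(TPM + 1), 743 were called between GL261 plus 005 and CT2A plus Mut3 beside 2959, and 1132 between CT2A and Mut3 beside 2231. In the comparison with naïve brain the TPM scale moved the median of all genes to −0.29, from 0.01, and the share of calls that were higher in tumors to 20.3%, from 46.7%. Relative to that median the 4 genes remained higher in tumors. Library size in place of TMM moved the median of CT2A over Mut3 to −0.13, from 0.02. With DESeq2, 53.7% of the calls between GL261 and 005 were higher in GL261, beside 66.2%.

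The replicate numbers come from the labels and belong to different mice. Of 30 same-numbered pairs from different groups 1 had a correlation of its deviations over 0.1, so the numbers were not taken as a pairing. A replicate block left the 4 genes at 1, 0 and 4 called in the tested comparisons, with Capn6 at 2.24 (adjusted p = 0.0438), and the listed genes at 30. The level order of the groups is given in the report in CPM and in TPM. Of the 5 most alike genes, 3 for Ubd, 1 for Ly6a, 0 for Apol10b and 2 for Capn6 were again among the first 5 by Spearman correlation, and 1, 1, 1 and 3 on log2(TPM + 1). Their ranks went as low as 206 by Spearman correlation and 63 on log2(TPM + 1).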
